A study of Mus musculus with 8 samples.

Results

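The collagen genes of the mouse distal colon were followed in 4 control and 4 Siglec-XII samples. The members were all 44 genes whose symbol was Col, a number, the letter a and a number, out of 52143 genes with a value. They held 45 entries, because Col4a6 was listed 2 times with equal values in every sample. The family was read in 3 classes, with 11 fibrillar genes, 6 basement membrane genes (type IV) and 27 genes of other types. Control mice carried Villin1-Cre-ERT, a tamoxifen-inducible Cre recombinase under the Villin1 promoter, which is active in the epithelium of intestinal villi and crypts. Siglec-XII mice (SIGLEC12-Villin1-Cre-ERT) carried the same Cre and, at the ROSA26 locus, human SIGLEC12 behind an EGFP stop cassette that Cre removes. The mice were female and 8 weeks old. Both groups received tamoxifen (10 mg/ml) on 5 days, and colons were taken 7 days after the last dose, on day 12. The inserted gene is thus switched on in epithelial cells, whereas most collagens are made by other cells of the gut wall. SIGLEC12, EGFP and Cre have no value in the table, so the genotype labels could not be checked by expression. The design text speaks of 3 mice per condition and the methods of 3 technical replicate libraries per sample, so P values measure only the spread between these samples, which may be technical.

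Collagens are secreted proteins in which alpha chains wind around each other in a helix. Fibrillar collagens (types I, II, III, V, XI, XXIV and XXVII) build the fibrils of connective tissue and are made mainly by fibroblasts and smooth muscle cells. Type IV collagen forms the network of every basement membrane, the sheet on which the epithelium rests. Other types coat fibrils (the FACIT group, such as types XII, XIV and XVI), form beaded filaments (type VI) or sit in basement membrane zones (types XV and XVIII). Type XVII is a transmembrane collagen of hemidesmosomes, the junctions that fix basal cells of skin and other stratified epithelia to the basement membrane, and type VII forms the anchoring fibrils beneath them.

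Values were log2(TPM + 1), where TPM is a gene's length-corrected share of the transcripts in a library, so levels can be compared between genes. The number of reads behind each value is unknown. Differences are given as Siglec-XII minus control on the log2(TPM + 1) scale, which understates the change of genes with low values. Each sample had 12748 to 13715 genes at 1 TPM or more, and the correlation over genes between samples was 0.945 to 0.987. Siglec-XII samples 3 and 4 stood apart from the rest. On the first principal component, which held 40.3% of the variance, they lay at 36.2 and 50.2, whereas the other 6 samples lay between -29.0 and -4.80. Their median log2 values over the tested genes were also the lowest, at -0.23 and -0.37 from the 8-sample mean, against -0.02 to 0.18 in the others.

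Collagen transcripts were scarce in both groups, and no collagen gene passed the adjusted test of Siglec-XII against control colons. The transmembrane collagen gene Col17a1 was the highest in controls, with 16.2 ± 10.9 TPM (SD, n = 4), followed by the fibrillar gene Col3a1 with 9.71 ± 5.25 TPM and the FACIT gene Col16a1 with 7.49 ± 1.06 TPM. In Siglec-XII samples the same 3 genes measured 6.13 ± 4.63, 7.40 ± 1.76 and 6.40 ± 2.46 TPM (SD, n = 4). Of the 44 genes, 6 reached a TPM of 1 in all 8 samples, 17 reached it in at least 1 sample, and 27 reached it in none. Among the last, 10 stayed under a TPM of 0.1 in every sample. They included genes known from cartilage (Col2a1, Col9a1, Col10a1), whose mean level in controls was 0.0282, 0 and 0.00623 TPM. Col9a2 and Col9a3, the other type IX genes, were not among the 10, at 0.250 to 0.408 and 0.0308 to 0.217 TPM in controls. In these bulk samples, fewer cells of a type and less RNA per cell cannot be told apart.

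**Figure D1:**
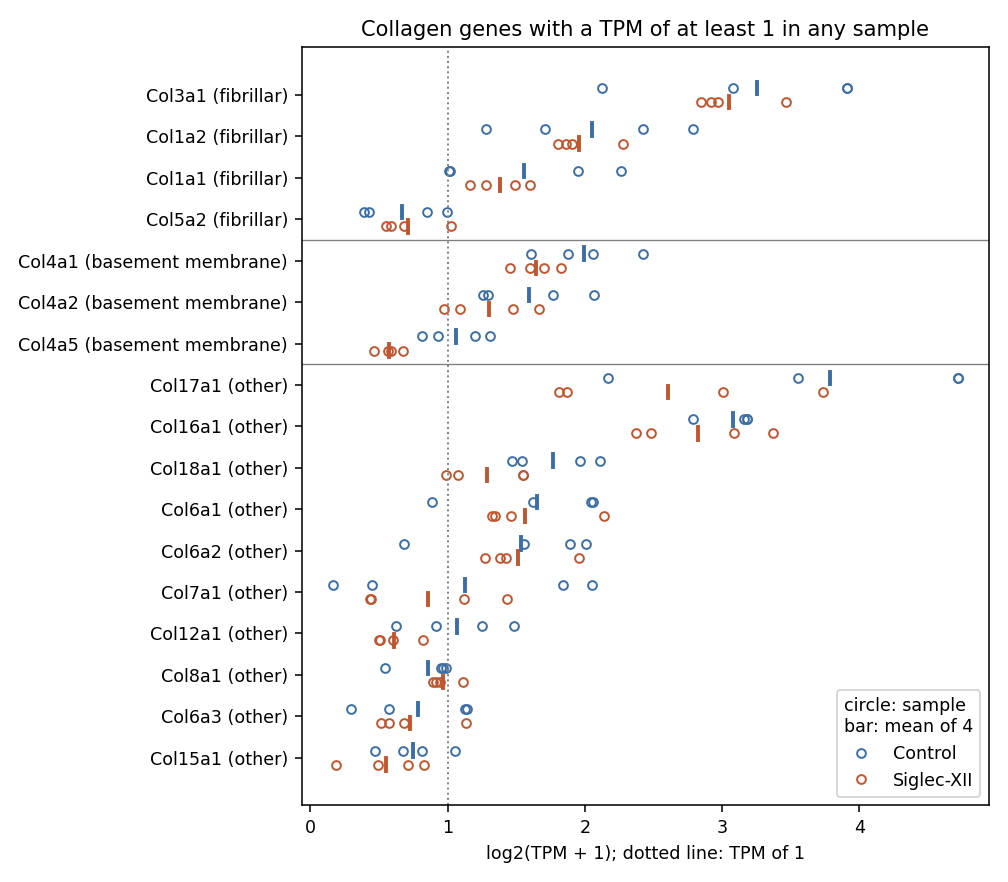
Levels of the 17 collagen genes that reached 1 TPM in some sample, as log2(TPM + 1), grouped into fibrillar, basement membrane and other types. Circles are samples, upright bars the mean of 4, blue control and orange Siglec-XII. Groups overlap for every gene shown except Col4a5, and Col17a1 has the widest spread.

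The group test took in the 11 collagen genes that reached 1 TPM in 4 or more samples: 3 fibrillar, 2 basement membrane and 6 of other types. By limma with Benjamini-Hochberg adjustment over 13164 genes, 0 of 11 had an adjusted P of 0.05 or less, beside 0.038% of all genes tested (5 genes), and the smallest adjusted P of a collagen gene was 0.515. At an unadjusted P of 0.05 or less, 1 of 11 (Col18a1, lower in Siglec-XII) was called, beside 8.87% of all genes tested. All 11 log2 differences were below 0, beside 78.1% of all genes tested, and this direction did not hold when samples were brought to a common scale. After centring each sample on its median, 6 lay below 0 and 5 above (38.5% of all genes below 0), and after quantile normalization 7 lay below and 4 above (46.3% of all genes below 0). The median difference of the 11 was -0.25 as deposited, beside -0.15 for all genes tested, and -0.04 after median centring, beside 0.06. Between the groups, the mean of the sample medians differed by -0.21, and median centring took this out of every difference. With 1 sample left out, the median of the 11 ranged from -0.41 (without control 2) to -0.05 (without control 4). Without Siglec-XII samples 3 and 4, 9 of 11 lay below 0, beside 49.1% of all genes tested, with a collagen median of -0.22 and 0 unadjusted calls, beside 2.75%. Without controls 1 and 4, whose place is described with Col17a1, 7 of 11 lay below 0, beside 79.1%, again with 0 unadjusted calls, beside 4.26%.

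**Figure D2:**
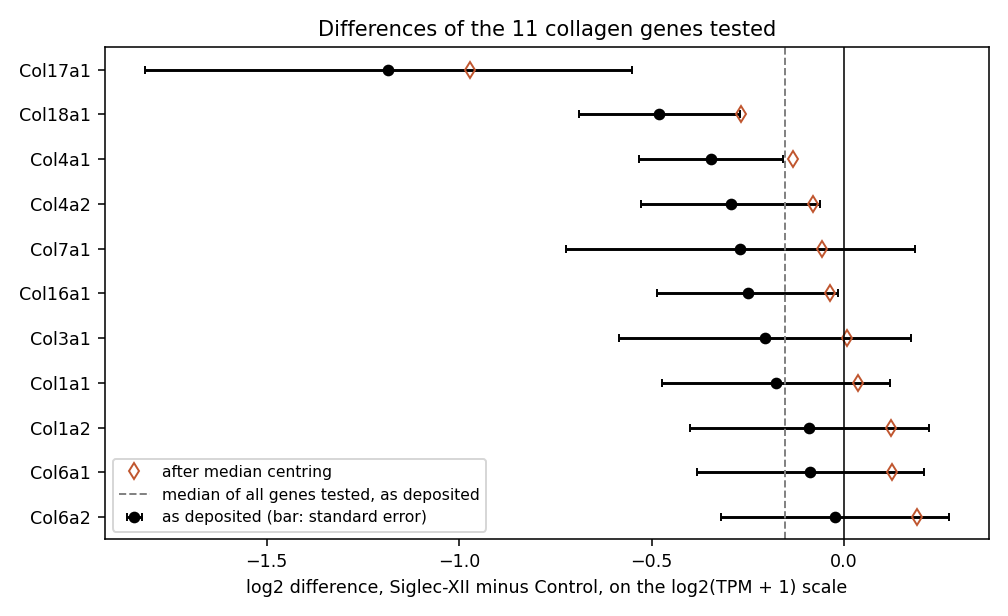
Log2 differences (Siglec-XII minus control, log2(TPM + 1) scale) of the 11 collagen genes tested. Black points with standard errors are the deposited values, open diamonds the same after median centring, and the dashed line is the median of all genes tested (-0.15). All black points lie left of 0, and 5 diamonds lie right of it.

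On average, fibrillar collagens were 26.9% of the collagen TPM of controls and 33.8% of that of Siglec-XII samples, nearly all of it from the genes of types I and III. Col3a1 (GRCm38, chr1:45311538-45349706, plus strand) encodes the chain of type III collagen, the fine fibrils of distensible tissue. It measured 7.46, 3.36, 14.0 and 14.0 TPM in controls 1 to 4 and 6.57, 6.19, 6.84 and 10.0 TPM in Siglec-XII samples 1 to 4. The Siglec-XII samples lay inside the range of the controls, of which sample 2 was lowest and samples 3 and 4 highest. The log2 difference was -0.21 ± 0.38 (SE; limma adjusted P = 0.794; exact permutation P = 0.686), smaller than the spread between replicates. The bases before the start of this highest fibrillar gene are given here, 5′ to 3′ on its own strand, with a TATAAA match in capitals (RefSeq, GRCm38.p6, chr1:45311288-45311537):
Col3a1: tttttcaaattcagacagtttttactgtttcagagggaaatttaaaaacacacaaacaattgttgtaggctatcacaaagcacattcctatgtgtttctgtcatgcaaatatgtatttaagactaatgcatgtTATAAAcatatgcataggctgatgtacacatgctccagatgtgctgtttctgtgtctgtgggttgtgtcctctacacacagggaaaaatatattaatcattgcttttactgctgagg

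The type I genes were also highest in controls 3 and 4, at lower levels. Col1a2 (chr6:4504814-4541544, plus strand), the alpha 2 chain, measured 2.27, 1.43, 5.89 and 4.36 TPM in controls and 2.63, 2.48, 2.74 and 3.84 TPM in Siglec-XII samples. Col1a1 (chr11:94936224-94953042, plus strand), the alpha 1 chain, measured 1.02, 1.02, 3.79 and 2.87 TPM in controls and 2.04, 1.80, 1.24 and 1.42 TPM in Siglec-XII samples. For both genes the highest and the lowest values were controls, so the groups overlapped entirely. The log2 differences were -0.09 ± 0.31 for Col1a2 (SE; limma adjusted P = 0.894) and -0.18 ± 0.30 for Col1a1 (SE; limma adjusted P = 0.773). Col3a1 and Col1a2 kept nearly the same ratio in all samples, 2.35 to 3.28, whereas each gene alone ranged over 4.18-fold and 4.12-fold. The ratio of Col1a1 to Col1a2 was looser, at 0.37 to 0.78, with the lowest value in Siglec-XII sample 4. The 7 fibrillar genes that never reached a TPM of 1 included the type XI genes Col11a1 and Col11a2, along with Col5a1 and Col5a3. Col5a1, whose chain helps set the width of type I fibrils, measured 0.334 to 0.945 TPM in controls and 0.293 to 0.485 TPM in Siglec-XII samples. Col5a2, its partner chain and the tail-to-tail neighbour of Col3a1 at a distance of 24614 bases, measured 0.309 to 0.990 and 0.467 to 1.04 TPM.

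Type IV genes were 11.1% of the collagen TPM of controls and 10.6% of that of Siglec-XII samples, on average. Col4a1 (chr8:11198423-11312826, minus strand) and Col4a2 (chr8:11312805-11449287, plus strand) encode the chains of the common basement membrane network. Their genes lie head to head, and in the gene annotation (GENCODE M21) their first exons share 22 bases on opposite strands, shown here on the plus strand with a GGGCGG match in capitals (GRCm38.p6, chr8:11312805-11312826):
Col4a1 and Col4a2: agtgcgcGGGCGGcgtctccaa

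Col4a1 measured 2.67, 2.05, 4.35 and 3.17 TPM in controls and 2.26, 2.54, 1.74 and 2.04 TPM in Siglec-XII samples. Col4a2 measured 1.45, 1.39, 3.19 and 2.40 TPM in controls and 2.17, 1.78, 1.12 and 0.967 TPM in Siglec-XII samples. Controls 3 and 4 were highest for both genes, and control 2 lay among the Siglec-XII samples. The log2 difference was -0.35 ± 0.19 for Col4a1 (SE; limma adjusted P = 0.515; exact permutation P = 0.114) and -0.29 ± 0.23 for Col4a2 (SE; limma adjusted P = 0.571; exact permutation P = 0.314). The ratio of Col4a1 to Col4a2 was 1.04 to 2.10 over the 8 samples.

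The other type IV genes were scarcer. Col4a5 (chrX:141475385-141689234, plus strand), a chain of basement membranes of kidney, skin and smooth muscle, was the only one of the 44 genes whose groups did not overlap, which held for 5.11% of all genes tested. It measured 1.48, 0.901, 0.761 and 1.30 TPM in controls and 0.499, 0.381, 0.481 and 0.595 TPM in Siglec-XII samples. Every Siglec-XII value lay below every control value, with a log2 difference of -0.49 and a 2-sided exact permutation P of 0.0286, the smallest that 4 against 4 samples can give. The gene was highest in controls 1 and 4. This separation holds only for the deposited scale. Siglec-XII sample 4 had a log2 value of 0.67 and a median shift of -0.37, and control 3 had 0.82 and 0.10. With these shifts taken out, the groups overlap. Among the genes tested, 4.06% had every Siglec-XII value below every control value. Col4a5 itself had too few samples with a TPM of at least 1 to be tested with them. In a fit with no filter on low values its limma P was 0.00754 and its adjusted P 0.682. Col4a6, its head-to-head neighbour at a distance of 1308 bases, measured 0.400, 0.240, 0.0892 and 0.253 TPM in controls and 0.131, 0.118, 0.0602 and 0.0666 TPM in Siglec-XII samples, with control 3 inside the Siglec-XII range. Col4a3 and Col4a4, the chains of the glomerular basement membrane, lie head to head with 71 bases between them and stayed at or below 0.360 and 0.0670 TPM.

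**Figure D3:**
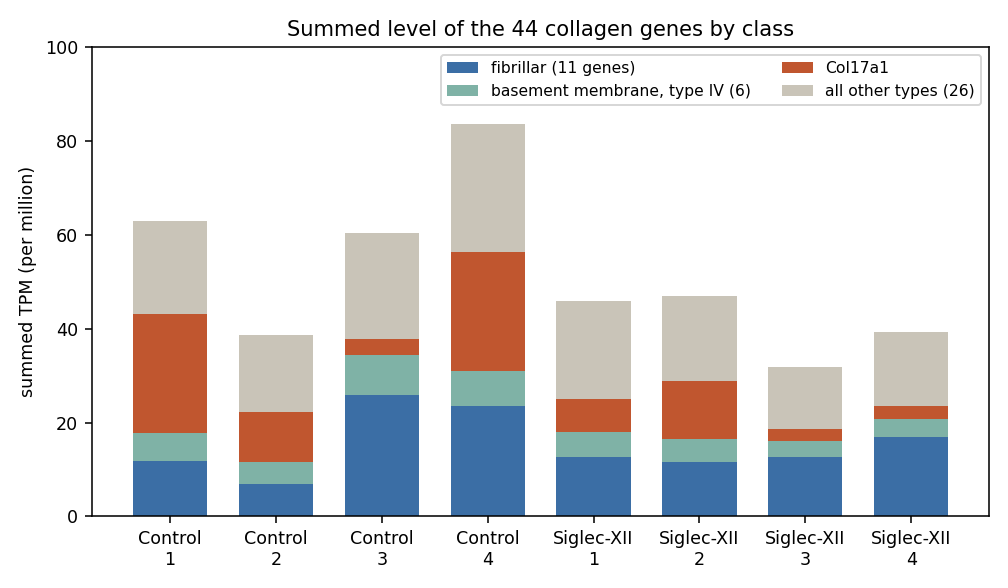
Summed TPM of the 44 collagen genes in each sample, stacked by class, with Col17a1 apart from the other types. The sum was 38.6 to 83.7 TPM in controls and 31.8 to 47.0 TPM in Siglec-XII samples, and the Col17a1 segment ranged from 2.50 TPM (Siglec-XII 3) to 25.3 TPM (controls 1 and 4).

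Col17a1 (chr19:47646344-47692094, minus strand) had the largest difference of the 11 tested genes and the widest spread within groups, both on the log2(TPM + 1) scale. It measured 25.3, 10.7, 3.49 and 25.3 TPM in controls and 7.05, 12.3, 2.50 and 2.65 TPM in Siglec-XII samples. Controls 1 and 4 lay above all other samples, whereas control 3 lay below Siglec-XII samples 1 and 2. The log2 difference was -1.18 ± 0.63 (SE; limma P = 0.0941, adjusted P = 0.515; exact permutation P = 0.143), and it was -0.25 (limma adjusted P = 0.844) without controls 1 and 4 and -0.42 (limma adjusted P = 0.991) without Siglec-XII samples 3 and 4. Col17a1 alone made up 5.76% to 40.2% of the collagen TPM in controls and 6.74% to 26.2% in Siglec-XII samples.

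Col7a1 (chr9:108953586-108984875, plus strand), the anchoring fibril gene, is given in every sample although its level did not place it among the genes chosen for this, because its values were seen to be highest in the same samples as those of Col17a1. It measured 2.59, 0.366, 0.120 and 3.15 TPM in controls and 1.18, 1.69, 0.360 and 0.354 TPM in Siglec-XII samples. As for Col17a1, controls 1 and 4 were highest and Siglec-XII samples 1 and 2 lay above 3 and 4. The log2 difference was -0.27 ± 0.45 (SE; limma adjusted P = 0.775), and it was 0.55 (limma adjusted P = 0.597) without controls 1 and 4. Over the 8 samples Col7a1 ranged over 26.3-fold and Col17a1 over 10.1-fold, more than any other tested collagen gene. The ratio of Col7a1 to Col17a1 was 0.03 to 0.17, a 4.89-fold range and the widest of the 6 ratios computed, with means of 0.07 in controls and 0.15 in Siglec-XII samples and every Siglec-XII ratio above every control ratio. The nearest ratios of the groups were 0.125 (control 4) and 0.134 (Siglec-XII 4). The lowest, 0.034 in controls 2 and 3, rested on Col7a1 values of only 0.366 and 0.120 TPM. The ratios were not tested, and the share of gene pairs whose ratios separate the groups was not counted. The bases before the starts of both genes are shown because both were highest in controls 1 and 4, 5′ to 3′ on each gene's own strand (RefSeq, GRCm38.p6, Col17a1 chr19:47692095-47692292 up to its first annotated exon, Col7a1 chr9:108953336-108953585). Capitals mark matches to TATAAA in Col17a1, and in Col7a1 a CCAAT match read on the other strand and a GGGCGG match:
Col17a1: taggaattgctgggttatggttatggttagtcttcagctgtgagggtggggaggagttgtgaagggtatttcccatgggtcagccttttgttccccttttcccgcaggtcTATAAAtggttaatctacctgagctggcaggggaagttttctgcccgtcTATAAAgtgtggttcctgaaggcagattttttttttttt
Col7a1: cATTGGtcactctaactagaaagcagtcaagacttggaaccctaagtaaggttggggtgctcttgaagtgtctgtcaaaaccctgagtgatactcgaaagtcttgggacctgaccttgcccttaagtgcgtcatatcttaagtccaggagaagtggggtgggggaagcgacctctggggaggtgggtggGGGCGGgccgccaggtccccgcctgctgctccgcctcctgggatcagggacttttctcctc

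The level of Col17a1 moved with genes of stratified squamous epithelium, a tissue that lines the anal canal and skin and not the colon. A list of 10 such genes (Krt5, Krt14, Krt15, Krt13, Krt4, Trp63, Dsg3, Dsc3, Sprr1a and Lor) was drawn up after the values of Col17a1 and Col7a1 had been seen. All 10 were present in every sample. Their summed level was 20896, 1730, 1243 and 10273 TPM in controls 1 to 4 and 1528, 5231, 724 and 794 TPM in Siglec-XII samples 1 to 4, or 0.0724% to 2.09% of all TPM. Ordered by the mean log2 value of the list, the samples took the same place as in the order of Col17a1 in 6 of 8 cases, and the 2 exceptions were controls 1 and 4, which were nearly equal in Col17a1. For Col4a6 the place was the same in 5 of 8 samples, for Col18a1 in 3, for Col7a1 and Col4a5 in 2 each, for Col1a1 in 1, and for Col3a1 and Col12a1 in 0. Such a count misses orders that are nearly equal. Like the list and Col17a1, Col18a1, Col4a6 and Col12a1 were highest in controls 1 and 4 and lowest in Siglec-XII samples 3 and 4. Col7a1 and Col4a5 were also highest in controls 1 and 4, but Col7a1 was lowest in control 3 and Col4a5 in Siglec-XII sample 2. Col3a1 and Col1a1 had none of these patterns. Of the 10 genes, all had a log2 difference below 0 (median -1.45), 1 had an unadjusted P of 0.05 or less and 0 an adjusted one. After median centring 9 of 10 lay below 0 (median -1.23), and without controls 1 and 4 it was 7 of 10 (median -0.03). The gene with the unadjusted call was Dsg3, a desmosomal cadherin of basal keratinocytes (-1.69 ± 0.71, SE; limma adjusted P = 0.515). Krt14, a basal keratin, measured 251 to 5674 TPM in controls and 120 to 1652 TPM in Siglec-XII samples. The part of such tissue in the differences of the collagen genes was not tested. A list of 8 other hemidesmosome genes, chosen at the same time, had 4 of 8 differences below 0 with a median of -0.04, and 0.18 after median centring. Its highest members Itga6 and Cd151 measured 109 and 117 TPM on average in controls.

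**Figure D4:**
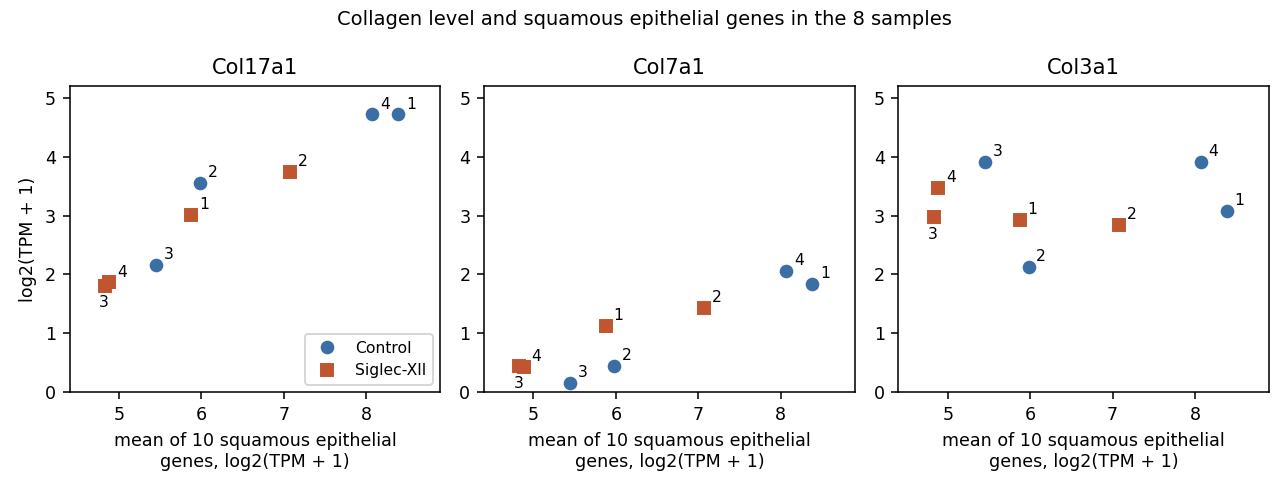
Level of Col17a1, Col7a1 and Col3a1 (log2(TPM + 1)) against the mean log2(TPM + 1) of 10 squamous epithelial genes, 1 point per sample, numbered within its group. Col17a1 is highest in controls 1 and 4, which also have the highest squamous means (8.39 and 8.07), and lowest in Siglec-XII samples 3 and 4, which have the lowest (4.83 and 4.88). Col3a1 follows another order, with control 3 (5.45) among its highest samples.

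Col18a1 (chr10:77052178-77166548, minus strand), whose product in basement membrane zones is the source of endostatin, was the gene with an unadjusted P under 0.05. It measured 2.90, 1.91, 1.76 and 3.32 TPM in controls and 1.93, 1.93, 0.984 and 1.10 TPM in Siglec-XII samples. Controls 1 and 4 lay above the rest and Siglec-XII samples 3 and 4 below it, while the other 4 samples lay between 1.76 and 1.93 TPM. The log2 difference was -0.48 ± 0.21 (SE; limma P = 0.0466, adjusted P = 0.515; exact permutation P = 0.171), and it was -0.27 after median centring, -0.21 without controls 1 and 4 and -0.22 without Siglec-XII samples 3 and 4, with no unadjusted call in any of these. Col15a1, of the same group and known from the vessel and muscle basement membrane zone, measured 0.383 to 1.07 TPM in controls and 0.135 to 0.778 TPM in Siglec-XII samples.

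Col16a1 (chr4:130047840-130099283, plus strand), a FACIT collagen, varied little among controls 2 to 4. It measured 5.90, 7.92, 8.06 and 8.09 TPM in controls and 9.35, 7.49, 4.58 and 4.17 TPM in Siglec-XII samples. Siglec-XII sample 1 was highest and samples 3 and 4 were lowest of all 8. The log2 difference was -0.25 ± 0.23 (SE; limma adjusted P = 0.617; exact permutation P = 0.343), and it was 0.15 without Siglec-XII samples 3 and 4. Col12a1, a FACIT collagen of dense connective tissue that was not tested for lack of samples with a TPM of at least 1, measured 0.541 to 1.79 TPM in controls and 0.414 to 0.769 TPM in Siglec-XII samples. The other 7 FACIT genes never reached a TPM of 1.

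The type VI genes had the differences nearest to 0. Col6a2 (chr10:76595762-76623630, minus strand) measured 1.94, 0.601, 3.02 and 2.72 TPM in controls and 1.69, 1.42, 1.60 and 2.89 TPM in Siglec-XII samples. Control 2 was lowest, and Siglec-XII sample 4 lay with controls 3 and 4. Its log2 difference was -0.02 ± 0.30 (SE; limma adjusted P = 0.972; exact permutation P = 0.943), the nearest to 0 of the 11. Col6a1, on the same strand at a distance of 85161 bases, had a log2 difference of -0.09 ± 0.29 (SE; limma adjusted P = 0.891), and its ratio to Col6a2 stayed between 0.96 and 1.42 while the genes ranged over 3.99-fold and 5.03-fold. Col6a3, the long chain of the filament, measured 0.224 to 1.21 TPM in controls and 0.430 to 1.20 TPM in Siglec-XII samples, and Col6a4, Col6a5 and Col6a6 never reached a TPM of 1. Of the network genes, Col8a1, a collagen of vessel walls, measured 0.453 to 0.978 TPM in controls and 0.858 to 1.16 TPM in Siglec-XII samples.

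By class, the median log2 difference was -0.18 for the 3 fibrillar genes (-0.21 to -0.09), -0.32 for the 2 basement membrane genes (-0.35 to -0.29) and -0.26 for the 6 others (-1.18 to -0.02), beside -0.15 for all genes tested. After median centring the class medians were 0.04, -0.11 and -0.05, so that the sign of the fibrillar class turned. With 1 sample left out, the fibrillar median ranged from -0.36 (without control 2) to 0.06 (without control 3) and was 0.01 without control 4. The basement membrane median ranged from -0.44 (without control 2) to -0.17 (without control 3), and that of the others from -0.42 (without control 2) to -0.09 (without control 4). The summed TPM of all 44 genes was 61.4 ± 18.4 for controls and 41.0 ± 6.99 for Siglec-XII samples (SD, n = 4), and 45.2 ± 14.9 and 34.8 ± 4.05 without Col17a1. Summed fibrillar TPM was 6.95 to 26.0 in controls and 11.6 to 17.0 in Siglec-XII samples, so the controls enclosed the Siglec-XII range.

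Marker genes of the cells that make collagens differed between samples as well. All 8 colon epithelial markers were present in every sample, with Epcam at 1216 to 1614 TPM and Krt8 at 3573 to 5352 TPM. Of these, 0 of 8 had an unadjusted P of 0.05 or less. Their presence does not show that the samples held colon alone, since the squamous genes made up 0.0724% to 2.09% of all TPM. Of 8 smooth muscle markers, all had a log2 difference below 0 (median -0.69, and a list mean of -1.14 in Siglec-XII sample 4 when set against the mean over 8), and 5 had an unadjusted P of 0.05 or less, among them Des and Cnn1, in which every Siglec-XII value lay below every control value, beside 7.67% of all genes tested with a lower call and 4.06% without overlap on the lower side. After median centring all 8 still lay below 0 (median -0.47, 4 unadjusted calls), as they did without Siglec-XII samples 3 and 4 (median -0.41, 3 calls) and without controls 1 and 4 (median -0.71, 0 calls). Over all genes tested, 2.75% were called in either direction without the former and 4.26% without the latter. The share called after median centring was not counted. The summed level of the smooth muscle markers was 649 to 1034 TPM in controls and 312 to 668 TPM in Siglec-XII samples. Of 8 fibroblast markers 6 were tested, with a median of -0.11 (0.10 after median centring) and 1 unadjusted call (Fbln1, -0.92 ± 0.38, SE; limma adjusted P = 0.515), and their summed level was 19.6 to 48.5 TPM in controls and 18.0 to 68.3 TPM in Siglec-XII samples. Of 6 endothelial markers 2 were tested, and Pecam1, like 4.06% of all genes tested, had every Siglec-XII value below every control value (-0.59 ± 0.12, SE; limma adjusted P = 0.515). Of the other lists, 2 of 6 glial, 4 of 6 adipocyte, 1 of 6 chondrocyte and 3 of 6 macrophage markers were tested with 0 unadjusted calls, and Acan, a defining marker of chondrocytes, was at 0 in all samples. Of 5 mesothelial markers 0 were tested, and their summed level was 21.1 TPM in Siglec-XII sample 4 against 0.265 to 3.04 TPM in the others. The part of any of these cell types in the collagen values was not tested.

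**Figure D5:**
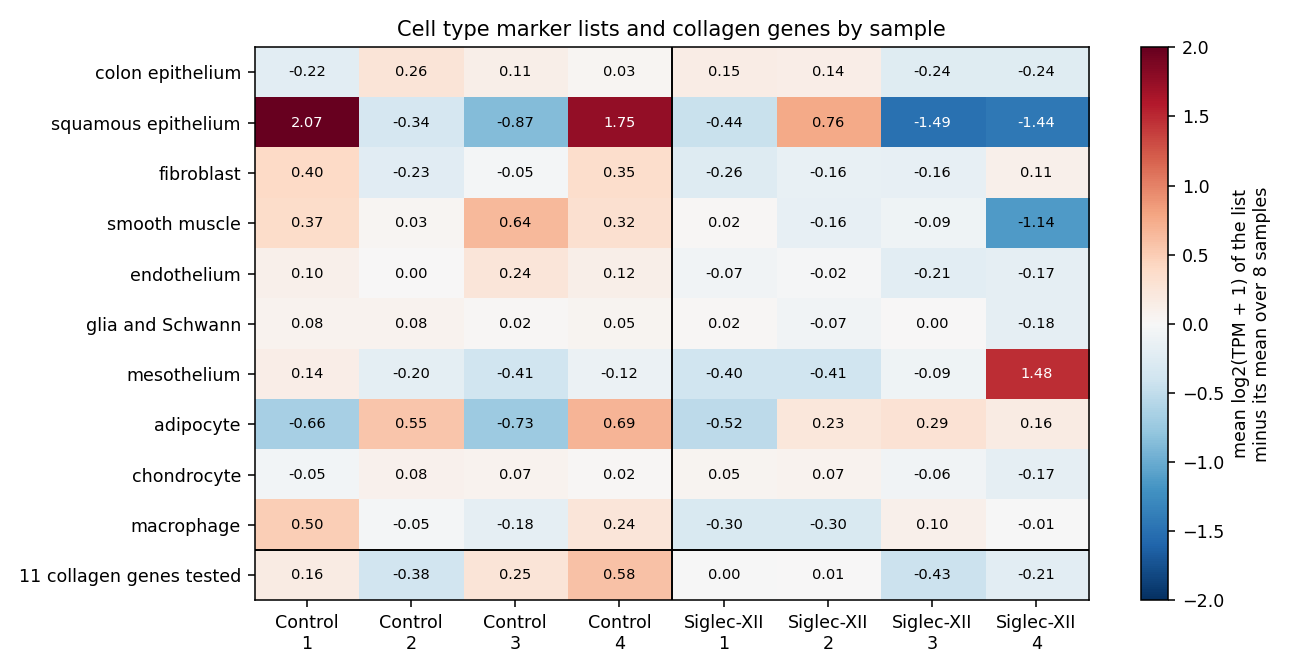
Mean log2(TPM + 1) of 10 cell type marker lists and of the 11 tested collagen genes in each sample, each minus its own mean over the 8 samples, in log2 units (red above, blue below). Squamous epithelial genes range from -1.49 to 2.07 and the collagen genes from -0.43 (Siglec-XII 3) to 0.58 (control 4).

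The proteins that make, export, join and degrade collagen were read from lists of genes by their known roles. In none of the 7 lists did a gene pass the adjusted P. Their medians, given as deposited, moved up with median centring, which left that of the fibril partners at -0.23, that of the export genes at 0.04 and the other 5 between -0.11 and -0.04. The unadjusted calls also depended on the scaling, and those among the modifying enzymes turned in direction. With median centring there were 2 higher and 0 lower calls among the modifying enzymes, 2 and 0 among collagenases and inhibitors, 1 and 0 among the export genes, and 0 and 1 among the fibril partners. With quantile normalization there were 1 higher and 0 lower in each of the first 3 lists and 0 and 0 among the fibril partners. The share of all genes called under these scalings was not counted, so these counts cannot be set against it. Without Siglec-XII samples 3 and 4 the export genes, basement membrane partners and receptors had medians above 0, at 0.10, 0.15 and 0.10. Enzymes that modify collagen chains in the endoplasmic reticulum had 12 of 18 genes tested, with 0 higher and 1 lower at an unadjusted P of 0.05 or less and a median of -0.26. Their highest members, P4hb (a subunit of prolyl 4-hydroxylase) and Ppib (a chaperone for collagen folding), measured 323 and 433 TPM in controls and 348 and 452 TPM in Siglec-XII samples. P3h1, a prolyl 3-hydroxylase, measured 1.03 to 1.50 TPM in controls and 0.616 to 0.846 TPM in Siglec-XII samples (-0.33 ± 0.13, SE; limma adjusted P = 0.515). Genes for the export of large cargo had 8 of 8 tested and 0 called, with a median of -0.17. Here Mia3, the receptor that loads procollagen into vesicles, measured 73.1 and 65.7 TPM in the 2 groups. Genes for propeptide removal and cross-linking had 3 of 14 tested, a median of -0.30 and 1 lower (Tgm2, a transglutaminase, -0.57 ± 0.23, SE; limma adjusted P = 0.515).

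Proteins bound to fibrils had 14 of 21 genes tested, with 0 higher and 3 lower at an unadjusted P of 0.05 or less and a median of -0.44. Without Siglec-XII samples 3 and 4, 0 were called lower, but all 14 lay below 0 (median -0.30), beside 49.1% of all genes tested. Without controls 1 and 4, 2 were called lower, beside 4.26% of all genes called in either direction. There, 11 of 14 lay below 0 (median -0.26), beside 79.1%. Fn1, fibronectin, measured 6.02 to 8.92 TPM in controls and 3.12 to 5.15 TPM in Siglec-XII samples (-0.52 ± 0.18, SE; limma adjusted P = 0.515). Thbs1, thrombospondin, likewise had every Siglec-XII value below every control value (-0.51 ± 0.19, SE; limma adjusted P = 0.515), and the third was Fbln1, which also stands among the fibroblast markers. Sparc, a collagen chaperone outside the cell, measured 16.4 and 17.1 TPM on average. Basement membrane partners had 8 of 16 tested and 0 called at a median of -0.26, with Lamb3, an epithelial laminin chain, at 55.4 TPM in controls against 58.2 TPM in Siglec-XII samples. Collagen receptors had 5 of 12 tested and 0 called at a median of -0.26, with Itgb1 at 70.7 and 65.4 TPM and Ddr1, a collagen-activated kinase, at 64.6 and 55.4 TPM. Collagenases and their inhibitors had 6 of 17 tested, with 1 higher, 0 lower and a median of -0.33. The 1 was Timp4, an inhibitor of matrix metalloproteinases, at 3.35 to 6.37 TPM in controls and 7.01 to 8.78 TPM in Siglec-XII samples (0.48 ± 0.19, SE; limma adjusted P = 0.515). As deposited, lower unadjusted calls made up 7.67% and higher ones 1.19% of all genes tested. Every Siglec-XII value lay below every control value in 4.06% of all genes tested, as in Fn1, Thbs1 and P3h1. Groups without overlap in either direction, as in Timp4, made up 5.11%.

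Promoter windows of 300 bases from RefSeq (GRCm38.p6) were matched to 35 of the 44 genes and to 10 of the 11 tested. They were searched on both strands for 4 motifs, with no overlap of motifs in the sequences shown. A collagen gene was counted when any of its windows held the motif. The share of all windows counts each window by itself, so the shares set side by side are of unlike units. GGGCGG, the core of a GC box, was found in 22 of 35 collagen genes (62.9%), beside 35.7% of all 32851 windows, and in 7 of the 10 tested. CCAAT was found in 13 of 35 (37.1%), beside 37.4% of all windows. TATAAA was found in 5 of 35 (14.3%), beside 13.6%, and among the tested genes in Col17a1 and Col3a1. TGANTCA, an AP-1 motif, was found in 1 of 35 (2.86%), beside 7.81%, and that gene was Col6a1.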

How the data were processed

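Log2(TPM + 1) values of 4 control and 4 Siglec-XII distal colon samples were used. The authors deposited these log2 values as 1 table without adjustment between samples. The submitters' processing notes name kallisto 0.45.0 and GRCm38, the study's Methods name another version and a human reference, and 98.3% of the gene identifiers belong to GENCODE M21 (mouse). The Methods also describe DESeq2, which needs counts, and counts were not used here. Depth is unknown, so no counting intervals were computed. The 13164 genes that reached 1 TPM in 4 or more samples were tested with limma 3.58.1 in R 4.3.3 (trend, Benjamini-Hochberg adjustment), a fit first tested on simulated data. Exact permutation tests were 2-sided over 70 labelings. Figures and summaries used Python 3.11.15, scipy 1.17.1 and matplotlib 3.10.9.

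Members, classes and lists were chosen with earlier results of these data known, and the squamous and hemidesmosome lists after the values of Col17a1 and Col7a1 had been seen. Values in every sample were given for the 3 genes of each class with the highest control mean, for genes with an unadjusted P of 0.05 or less, and for the genes with the largest and smallest differences (10 genes). Of each pathway list the 2 highest genes and the 2 with the smallest P could be named. A gene that this rule would name is not reported here. Col7a1, Col4a6, Fbln1 and untested genes given by range were named after their values were seen. Alternatives were quantile normalization, a minimum TPM of 5, no minimum, a pseudocount of 0.1, median centring, array weights, unmoderated variance, a block for the sample number, summed repeated symbols and each sample left out. Leaving out Siglec-XII samples 3 and 4, or controls 1 and 4, was added after seeing the data. The sample numbers come from the labels, which give no batch or date.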

Additional observations from a re-analysis of the deposited data

Results flagged for a closer look

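In 2 of 24 groups of 4 samples checked, a single sample stood far from the other 3, where 1.2 such groups would come up by chance. Col16a1 in control 1 was the lowest of the controls at a log2 value of 2.79 (5.90 TPM), and its gap to the next sample made up 0.934 of the group's range. Col6a1 in Siglec-XII 4 was the highest of its group at a log2 value of 2.14 (3.40 TPM), with a gap of 0.830 of the range.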

How the results depend on the processing

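The count of collagen genes with an adjusted P of 0.05 or less was 0 under all 19 alternatives. The unadjusted count (1 as deposited) was 0 with a minimum TPM of 5, a pseudocount of 0.1, quantile normalization, median centring, array weights, unmoderated variance, the replicate block, or without Siglec-XII samples 3 and 4 or controls 1 and 4, and 0 to 2 with a single sample left out. It was 0 without control 1, control 4, Siglec-XII 3 or Siglec-XII 4, and 2 without control 2 (Col18a1 and Col4a1) or without control 3 or Siglec-XII 2 (Col18a1 and Col17a1). With no filter it was 3 of 44 (Col4a5, Col9a2 and Col4a6, adjusted P = 0.682 each), and Col9a2 and Col4a6 stayed at or below 0.408 and 0.400 TPM. The share of all genes called was 8.87% as deposited. It was 2.75% without Siglec-XII samples 3 and 4 and 4.26% without controls 1 and 4. For the other alternatives it was not counted. The median of the other types was -0.72 with a minimum TPM of 5, which left 3 collagen genes and none of type IV. Signs turned for several genes: Col6a2 was 0.035 with a pseudocount of 0.1, and after quantile normalization Col6a2, Col1a2, Col6a1 and Col3a1 were 0.21, 0.15, 0.14 and 0.015. After median centring Col6a2, Col6a1, Col1a2, Col1a1 and Col3a1 were 0.19, 0.13, 0.12, 0.036 and 0.0068. Without controls 1 and 4, Col7a1, Col6a2, Col6a1 and Col3a1 were 0.55, 0.17, 0.099 and 0.034. Without Siglec-XII samples 3 and 4, Col16a1 and Col7a1 were 0.15 and 0.15, and with array weights Col7a1 was 0.26. With a single sample left out, the differences ranged from -0.36 to 0.056 for Col1a1, -0.35 to 0.15 for Col1a2, -0.58 to 0.012 for Col3a1, -0.34 to 0.047 for Col6a1, -0.31 to 0.13 for Col6a2, -0.59 to 0.039 for Col7a1 and -1.72 to -0.87 for Col17a1. The causes were not tested. Deviations of same-numbered samples correlated at -0.20 to 0.10, which cannot settle whether these samples were paired, and the labels do not say. With the replicate block 0 collagen genes were called at either threshold. Lists of few genes, 4 samples a group and unknown depth limit the precision.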
